A study of Rattus norvegicus with 12 samples.

Results

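Rat aortic endothelial cells (EC, as labelled) exposed to exosomes of AS-Tspan8 tumour cells were compared with untreated EC on expression arrays. The comparison rests on 4 of the 12 samples of the study, chosen by their labels: 2 arrays of untreated EC and 2 arrays of EC with AS-Tspan8 exosomes, numbered 1 and 2 in each group. All cells came from the BDX rat strain. Both EC groups had been kept in endothelial medium with serum and the growth factor VEGF, were starved overnight, and were then held for 24 hours in RPMI medium with 2% serum, without exosomes or with 10 µg/ml of exosomes. The exosomes came from the serum-free medium of donor cells starved for 36 hours. The donor, AS-Tspan8, is a derivative of the rat pancreatic tumour line AS that expresses the tetraspanin Tspan8, also named D6.1A or CO-029. A further EC group of 2 arrays, EC with exosomes of the parent line AS, entered the same fit and is used below for the spread and for side-by-side values. The labels do not say whether the arrays with different numbers are separate cultures, so p-values measure the spread between these arrays, which may be technical.

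Exosomes are small vesicles that form inside endosomes and are released when these fuse with the cell surface. Tetraspanins are proteins that cross the membrane several times and gather integrins and other partners in the vesicle membrane, and Tspan8 on tumour exosomes has been studied for its part in vesicle uptake and in the growth of new vessels. Endothelial cells that take part in vessel growth are known to leave quiescence, switch on inflammatory chemokines and adhesion molecules, rebuild the matrix around them and adjust glycolysis and fatty acid oxidation. Gene groups for these steps are described below, together with others such as protein synthesis, cholesterol and interferon genes.

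Summed signal was 11706700 and 12167200 on the untreated arrays and 11611900 and 10383600 on the treated arrays, and 8563 to 8923 probes were detected per array (detection p under 0.01). The markers bore out the endothelial label only in small part. Of 23 endothelial markers on the array, 17 were detected on none of the 6 EC arrays, among them Cdh5, Vwf, Tek, Tie1, Nos3 and Flt1. The 5 detected on all 6 included Ramp2, Egfl7 and Clec14a. Ramp2 had a signal of 1917 and 1421 in untreated EC, against 308 on the array of AS-Tspan8 cells. Egfl7 had 131 and 139 in untreated EC against 255 in those tumour cells, and Clec14a had 139 and 180 against 173. Fibroblast markers were bright, with signals of 24324 to 26661 for decorin (Dcn) and 23632 to 25142 for collagen Col1a2 on the untreated arrays. The summed signal of the 19 measured fibroblast markers was 103748 and 110984 in untreated and 106521 and 88093 in treated EC, and that of the 6 measured endothelial markers was 2550.0 and 2347 in untreated and 2346 and 1582 in treated EC. Of 34 pancreatic epithelial and tumour markers on the array, 25 were detected on no EC array, Krt19 and Epcam among them, while 5 were detected on all 6, among them the keratin gene Krt8 at 237 and 261 in untreated and 219 and 220.1 in treated EC. Of 17 leukocyte markers, 14 were detected on none, Ptprc among them, and 2 on all 6, which were Cd14 and Cd74, the latter at 405 and 385 in untreated and 371 and 170.1 in treated EC. Fewer cells of a type and less RNA per cell cannot be told apart in such bulk samples.

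Tspan8 itself was not detected in EC. Its signal was 71.1 and 79.0 on the untreated arrays and 75.5 and 71.0 on the treated arrays, against 2036 on the array of AS-Tspan8 cells. On the arrays of exosomes of the same donor line, the Tspan8 signal was 87.6 and 89.2, with detection p-values of 0.0206 and 0.0267. The arrays measure the message and not the Tspan8 protein of the vesicles.

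Treated array 2 stood apart from the arrays numbered 1. Over the 9025 features measured in EC, its normalized log2 values correlated at 0.972 with each array numbered 1, treated array 1 among them. The correlation was 0.981 with untreated array 2 and 0.989 with array 2 of EC with AS exosomes. By comparison, the untreated arrays correlated with each other at 0.986, and the arrays of EC with AS exosomes at 0.985. The 3 arrays numbered 1 correlated with each other at 0.993 to 0.995, and untreated array 2 correlated with array 2 of EC with AS exosomes at 0.991. The results that follow are therefore given by array number as well: the difference in number 1 is treated array 1 minus untreated array 1, and the difference in number 2 is treated array 2 minus untreated array 2, both on the log2 scale.

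No feature passed the test between treated and untreated EC. Of 9025 features tested with limma, 0 passed an adjusted p of 0.05 (0% called), and the lowest adjusted p was 1. An unadjusted p under 0.05 was reached by 116 features, 54 higher and 62 lower, where an even spread of p-values would give 451. Treated and untreated arrays did not overlap, on normalized values, for 1172 features that were higher (13% of those tested) and for 1096 that were lower (12.1%). These shares are the background for every count without overlap given below. The median standard error of a log2 difference was 0.20.

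The differences in number 1 and in number 2 had little in common. Across the 9025 features they correlated at r = -0.06 (Spearman's rank correlation -0.03), which is a description across genes that share their arrays, and 49.3% of features had the same sign in both. Number 2 was the wider of the pairs, with a standard deviation of 0.43 against 0.26, and 1140 features differed by more than 1.5-fold in number 2 against 314 in number 1. A difference over 1 on the log2 scale in number 2 beside one under 0.3 in number 1 was seen for 71 higher and 123 lower features. The converse was seen for 1 higher and 0 lower, and 0 features exceeded 1 in the same direction in both numbers. Among named features, 7 were higher and 4 were lower by more than 1.5-fold in both numbers with groups that did not overlap and detection on both arrays of the higher group.

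**Figure D1:**
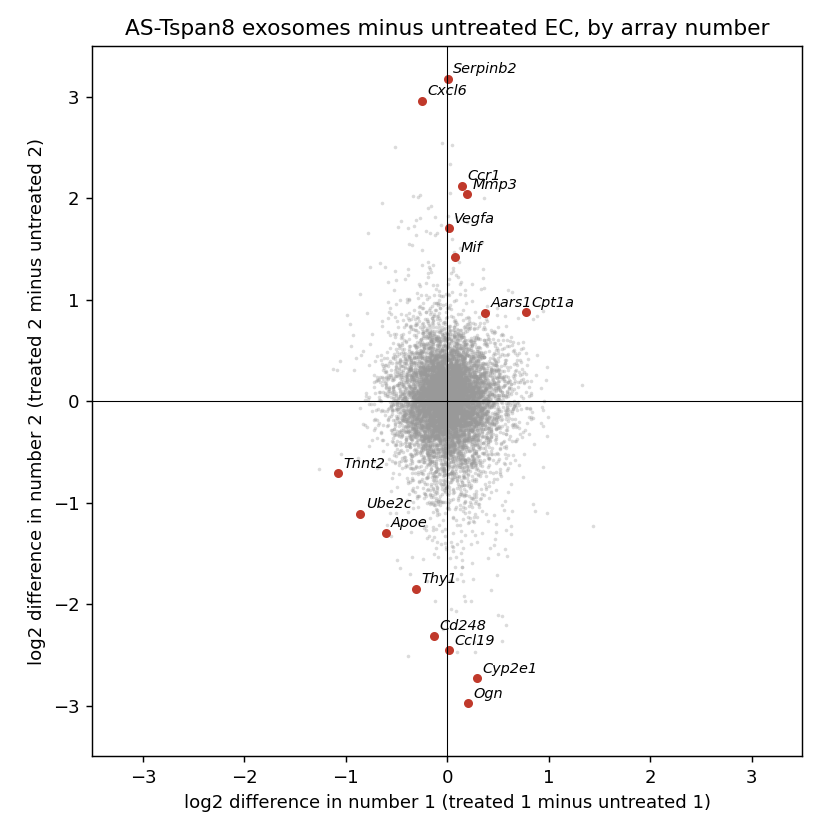
Log2 difference of each of 9025 features (grey) between EC with AS-Tspan8 exosomes and untreated EC, in number 1 on the horizontal axis and in number 2 on the vertical axis, with some genes labelled in red. The cloud is taller than it is wide and has little slope (r = -0.06), and genes such as Ogn, Cyp2e1, Cxcl6 and Serpinb2 lie close to the vertical axis.

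Genes with groups that did not overlap and the same direction in both numbers were ranked by the size of the smaller of their differences. Their leading member on the higher side was Pappa, a secreted protease that frees insulin-like growth factors from their binding proteins. Its signal was 101 and 155 on the untreated arrays and 161 and 194 on the treated arrays, a log2 difference of 0.94 in number 1 and 0.89 in number 2 (mean 0.92, SE 0.49). Untreated array 2 lay close to treated array 1 in this gene, so the groups were apart by little. Ubr4, a ubiquitin ligase that recognises destabilising protein ends, had a signal of 732 and 1020.3 in untreated and 1282 and 1419.9 in treated EC, a log2 difference of 0.82 (SE 0.32).

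Among these 24 genes the difference was largest relative to its standard error for Cpt1a, the carnitine transferase that admits long-chain fatty acids into mitochondria. Its signal was 441 and 426 in untreated and 729 and 593 in treated EC. Both treated arrays were above both untreated arrays, by 0.77 in number 1 and 0.87 in number 2, and the mean difference was 0.82 (SE 0.19), a 1.77-fold higher level. None of the 24 genes passed the adjusted test.

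Utp20, Nup205, Cad and Mybbp1a were also among the 12 highest ranked. Utp20, part of the complex that processes the small ribosomal subunit's RNA, had a signal of 91.1 and 126 in untreated and 137 and 145 in treated EC. Nup205, a scaffold protein of the nuclear pore, had 467 and 664 against 705 and 807. In both genes untreated array 1 was the lowest of the 4, and treated array 1 was above untreated array 2, by a small margin before normalization. On normalized log2 values untreated array 2 and treated array 1 were at 5.86 and 6.45 in Utp20 and at 9.09 and 9.38 in Nup205. The same order held for Cad, the enzyme that starts pyrimidine synthesis, with normalized log2 values of 6.43 and 6.94 in untreated and 7.18 and 7.52 in treated EC, and for the nucleolar protein Mybbp1a with 8.09 and 8.58 against 8.68 and 9.19. For Cad, Mybbp1a, Abr and the zinc finger gene Zfp142 the signals before normalization overlapped between the groups. The other 3 genes were Plekhn1, Slc7a7 and Abtb2. The signal of Slc7a7, a transporter of cationic amino acids, was 72.3 and 88.5 without detection in untreated EC and 93.8 and 97.4 in treated EC, so that it entered the fit through the treated arrays. Mean log2 differences of the 12 genes ran from 0.60 for Abtb2 to 0.92 for Pappa.

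On the lower side the first of the ranking was Ube2c. This gene, the ubiquitin carrier that starts chains for the anaphase-promoting complex, had a signal of 119 and 208 in untreated and 93.3 and 104 in treated EC, a log2 difference of -0.86 in number 1 and -1.11 in number 2 (mean -0.98, SE 0.42). Ube2s, the carrier that extends those chains, had 1239 and 1251 against 833 and 689. The untreated arrays were nearly level with each other in Ube2s, and both treated arrays lay well under them. Stmn1, which takes apart microtubules, had 174 and 283 against 142 and 162, and the Myc network member Mxd3 had 115 and 183 against 102 and 114.

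The lipid carrier gene Apoe had a signal of 1185 and 1555 in untreated and 797 and 554 in treated EC. Both treated arrays were lower, by a log2 difference of -0.61 in number 1 and -1.30 in number 2 (mean -0.95, SE 0.23), a 1.93-fold lower level. Tnnt2, a troponin of the contractile apparatus, had 191 and 163 against 122 and 101. Csrp2, a LIM protein known from smooth muscle, had 193 and 257 against 158 and 104, with a far larger difference in number 2 (-1.57) than in number 1 (-0.49). The receptor kinase Ror1, which binds Wnt5a, was detected in untreated EC at 107 and 115 and not in treated EC, where its signal was 82.4 and 78.2. The signal adaptor Dapp1, the galactose enzyme Galt, Cript and Cpped1 completed the 12, with mean log2 differences of -0.57, -0.52, -0.57 and -0.51.

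**Figure D2:**
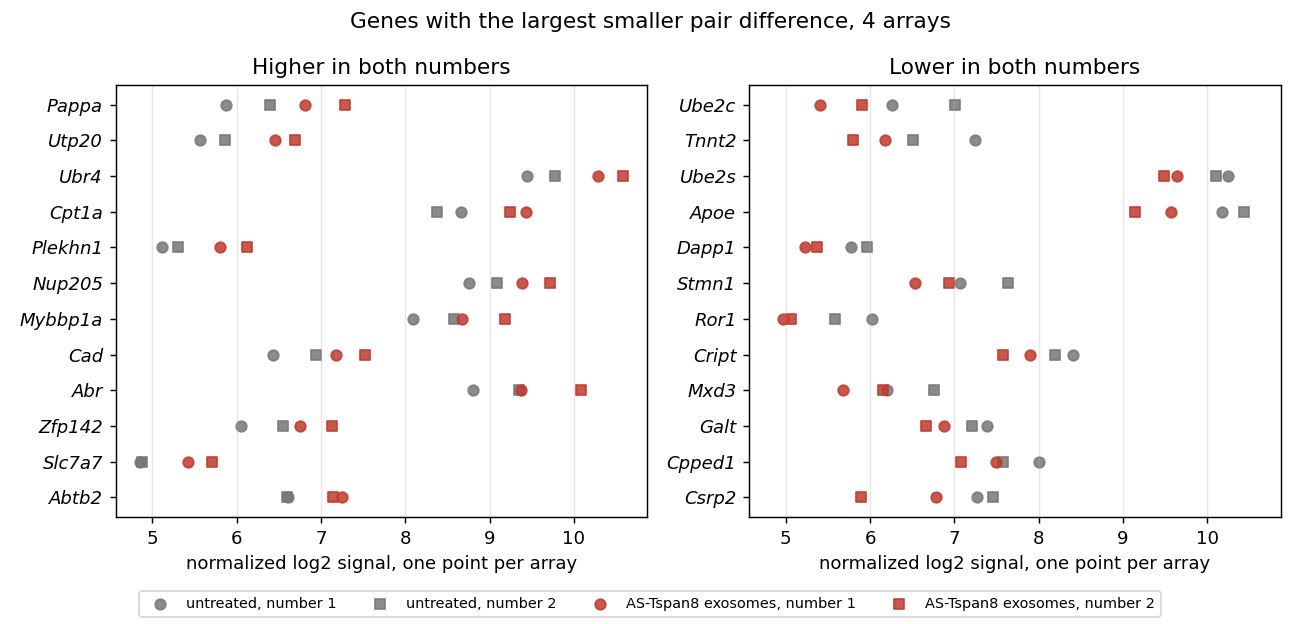
Normalized log2 signal on each of the 4 arrays (grey, untreated; red, AS-Tspan8 exosomes; circles, number 1; squares, number 2) for the 12 higher and 12 lower genes ranked by the smaller of their pair differences. Cpt1a and Abtb2 show untreated arrays close together and apart from the treated arrays, while in genes such as Mybbp1a, Abr and Mxd3 the nearest arrays of the groups almost touch.

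Aminoacyl-tRNA synthetases, the enzymes that load amino acids onto tRNAs, had the largest share of members on the higher side among the 24 gene lists. Of 16 measured, 14 were higher and 2 were lower, and treated and untreated arrays did not overlap for 9 higher and 1 lower, beside backgrounds of 13% and 12.1% of all features. Their median log2 difference was 0.31, against 0.00 over all features, and it was 0.14 in number 1 and 0.48 in number 2. None passed the test. Iars1, for isoleucine, had a signal of 273 and 340.1 in untreated and 375 and 424 in treated EC, a log2 difference of 0.62 (SE 0.21). Cars1, for cysteine, had 182 and 228 against 243 and 265. In both genes the 2 treated arrays were the highest of the 4. Aars1, for alanine, had 1358 and 1690.4 against 1746 and 2523, with the gap between treated array 1 and untreated array 2 the narrowest of these. Gars1, for glycine, was apart on normalized values, at 9.57 and 9.63 in untreated and 9.71 and 10.07 in treated EC, and overlapped before normalization. Sars1, for serine, went the other way, with 262 and 266 against 222 and 194 (log2 difference -0.31, SE 0.24). The median of the list stayed above that of all features when any 1 array was left out, at 0.11 to 0.47, and was lowest without treated array 2.

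Many of these synthetases are known targets of ATF4, the transcription factor of amino acid and unfolded protein stress. In the list of unfolded protein and ATF4 response genes, 21 of 32 measured members were higher. Their median log2 difference was 0.11 (0.04 in number 1, 0.34 in number 2). Groups did not overlap for 6 higher (18.8%, against 13% of all features) and 1 lower (3.1%, against 12.1%). Atf4 itself had a signal of 997 and 1204 in untreated and 1229 and 1381 in treated EC, a log2 difference of 0.40 (SE 0.18). The asparagine synthetase gene Asns had 132 and 178 against 165 and 257, higher by 0.36 in number 1 and 1.12 in number 2. In Atf4 the treated arrays stood above the untreated ones, while in Asns the signals overlapped before normalization. The amino acid transporter subunit Slc3a2 had 3189.7 and 3398 against 3515 and 3884. The chaperone gene Hspa5, apart on normalized values, had a log2 difference of 0.41 (SE 0.24), and the disulphide isomerase gene Pdia6 one of -0.08 (SE 0.16). Without scaling between arrays the median of this list was -0.03, where that of all features was -0.13.

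The 120 bases before the start site of 3 synthetase genes are shown as examples of windows that hold a C/EBP-ATF composite motif (TGATGNAAN, either strand), given in capitals, the letters that ATF4 and a C/EBP partner are known to bind. Sequences are from RefSeq on the GRCr8 build, on the gene's own strand. The search of the synthetases was added, and the examples picked, after their values were seen. Nars1, the asparagine enzyme, also holds the motif and is not shown, and had log2 differences of 0.32 in number 1 and 0.38 in number 2.
Aars1 (chr19:55908362-55908481, plus strand): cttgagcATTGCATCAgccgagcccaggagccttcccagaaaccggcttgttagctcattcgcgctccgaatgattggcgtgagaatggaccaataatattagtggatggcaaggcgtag
Iars1 (chr17:15193653-15193772, minus strand): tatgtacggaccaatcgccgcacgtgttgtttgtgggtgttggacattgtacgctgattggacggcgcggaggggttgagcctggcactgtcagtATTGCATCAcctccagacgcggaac
Tars1 (chr2:62114803-62114922, minus strand): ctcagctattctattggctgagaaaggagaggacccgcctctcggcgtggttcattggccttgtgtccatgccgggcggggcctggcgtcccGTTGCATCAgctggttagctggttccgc
All 3 windows carry the motif on the opposite strand, 113 bases before the start in Aars1, 25 in Iars1 and 28 in Tars1. Over windows of 250 bases, 4 of 14 synthetases with a RefSeq promoter held it (28.6%; Nars1 is the fourth), as did 3 of 29 members of the unfolded protein and ATF4 list (10.3%: Herpud1, Nupr1 and Trib3), 1.81% of the measured genes and 3.25% of all 27457 promoters. Tars1, the threonine enzyme, had a signal of 714 and 832 in untreated and 780.4 and 952 in treated EC, with an overlap that normalization removed. A match is a description of letters and not a bound site.

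Inflammatory genes of the NF-kB pathway were mostly higher. Of 24 measured members, 18 were higher, and 6 were higher without overlap (25%, against 13% of all features) and 0 lower, and the median log2 difference was 0.20. The difference was seen in number 2, where the list's median was 0.32, against 0.00 in number 1. The neutrophil chemokine gene Cxcl2 had a signal of 155 and 123 in untreated and 167 and 204 in treated EC, a log2 difference of 0.05 in number 1 and 1.60 in number 2. Treated array 1 was only just above untreated array 1, and untreated array 2 was the lowest of the 4. Cxcl2 on EC with AS exosomes was 177 and 184. The adhesion molecule gene Icam1 had 11539 and 9524 against 12473 and 11062, apart on normalized values and overlapping before normalization (log2 difference 0.32, SE 0.19). The same was true of the subunit genes Nfkb1 (0.44, SE 0.27) and Nfkb2 (0.30, SE 0.16). Untreated array 2 was the lowest of the 4 arrays for 13 of the 24 members and treated array 2 the highest for 14. The median without treated array 2 was 0.21 and without untreated array 2 it was 0.16.

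The window of Cxcl2 is shown because it holds 3 matches of the NF-kB motif, GGG and then any 2 bases, TT, any base and CC, searched on both strands, with overlapping matches counted singly. The capitals mark them, the first 2 of which overlap.
Cxcl2 (chr14:17467256-17467375, minus strand): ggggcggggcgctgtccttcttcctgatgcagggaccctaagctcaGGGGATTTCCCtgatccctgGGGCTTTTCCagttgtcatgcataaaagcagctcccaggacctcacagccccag
Over 250 bases, 9 of 20 list members with a RefSeq promoter held the motif (45%), against 4.73% of measured genes and 4.28% of all promoters. The list was made up of genes of the NF-kB pathway, so this share describes the list and not the treatment. The same holds for the motif shares of the other lists. Cxcl6 and Ccl20, which hold it, were higher in number 2 (2.96 and 1.95) and lower in number 1 (-0.25 and -0.64). Vcam1, which also holds it, had a mean log2 difference of -0.10 (SE 0.20). Cxcl6, Ccl20 and Vcam1 were picked after their values were seen.

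Cell cycle genes were mostly lower. Of 59 measured, 42 were lower and 17 higher, and 10 were lower without overlap (16.9%, against 12.1% of all features) and 0 higher. Their median log2 difference was -0.14, -0.16 in number 1 and -0.18 in number 2. The difference between array numbers was larger than that between treatments: the median of array 2 minus array 1 was 0.57 in untreated and 0.58 in treated EC. Treated array 1 was the lowest of the 4 arrays for 37 members and untreated array 2 the highest for 35. The direction turned when treated array 1 was left out (0.11) or untreated array 2 was left out (0.07), while within each number the treated array was the lower. Beside Ube2c and Stmn1, already described, the mitotic kinase gene Aurkb had a signal of 126 and 177 in untreated and 108 and 121 in treated EC, and Cks2, a small binding partner of the cyclin-dependent kinases, had 423 and 549 against 317 and 359. Cdk1, the kinase that drives entry into mitosis, had 665 and 900.1 against 540.2 and 402, a log2 difference of -0.34 in number 1 and -0.99 in number 2. Both treated arrays were below both untreated arrays for Cdk1, Cks2 and Aurkb. Among the cell cycle inhibitors and p53 targets 9 of 17 were higher (median 0.01). Groups did not overlap for 0 higher and 1 lower (5.9%, against 12.1% of all features), the latter being the inhibitor Cdkn2c.

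The window of Cdk1 is shown because it holds the element TTTGAA, called CHR, through which the DREAM complex is known to silence mitotic genes in resting cells. Capitals mark it.
Cdk1 (chr20:19265173-19265292, plus strand): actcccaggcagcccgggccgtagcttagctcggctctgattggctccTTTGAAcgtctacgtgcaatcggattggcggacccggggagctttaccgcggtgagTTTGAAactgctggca
Over 250 bases and both strands, 13 of 47 cell cycle genes with a RefSeq promoter held these letters (27.7%), against 9.85% of measured genes and 16% of all promoters. Log2 differences of the 13 ran from -0.85 for Cdkn3 to 0.53 for Kif22. Kif22 and Mcm2 (0.05) were on the higher side and the others on the lower side, all named after their values were seen.

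Beyond Cpt1a, fatty acid oxidation genes had no common direction: 14 of 28 measured genes were higher, and the median was -0.01. Groups did not overlap for 4 higher (14.3%, against 13% of all features) and 2 lower (7.1%, against 12.1%). Acaa2 and Acadl, enzymes of the oxidation cycle, were apart only on normalized values (0.23, SE 0.20, and 0.16, SE 0.16). The lipase inhibitor gene Angptl4 had a signal of 1616 and 896 in untreated and 1645 and 1933 in treated EC, with nearly all of its difference in number 2 (1.47 against 0.06 in number 1). The fatty acid receptor gene Cd36 had 343 and 405 against 324 and 168, and the isomerase gene Eci1 had 2304 and 1982 against 1688 and 1478. In Cd36 treated array 2 was far below the other 3.

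The LXR target and lipid transport list was mixed as well, with 11 of 18 higher and a median of 0.09 (-0.09 in number 1, 0.30 in number 2). Groups did not overlap for 2 higher (11.1%) and 3 lower (16.7%), against 13% and 12.1% of all features. Apoe was the lowest member of the list. Mylip, the ligase that degrades the LDL receptor, had 132 and 194 against 123 and 104, and the cholesterol exporter gene Abcg1, also an LXR target, had a log2 difference of 0.28 (SE 0.18) on the higher side. Cholesterol synthesis genes were lower for 14 of 16, with a median of -0.22 (-0.24 in number 1, -0.18 in number 2). Without overlap, 0 were higher and 3 lower (18.8%, against 12.1% of all features). The isoprenoid enzyme gene Idi1 had 349 and 419 against 237 and 295, with log2 differences of -0.73 and -0.29. Pmvk and Ebp, of the same pathway, had -0.41 (SE 0.26) and -0.23 (SE 0.22). As for the cell cycle, the array numbers differed by more than the treatments, as the median of array 2 minus array 1 was 0.58 in untreated and 0.64 in treated EC. The direction turned without treated array 1 (0.13) or untreated array 2 (0.06).

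**Figure D3:**
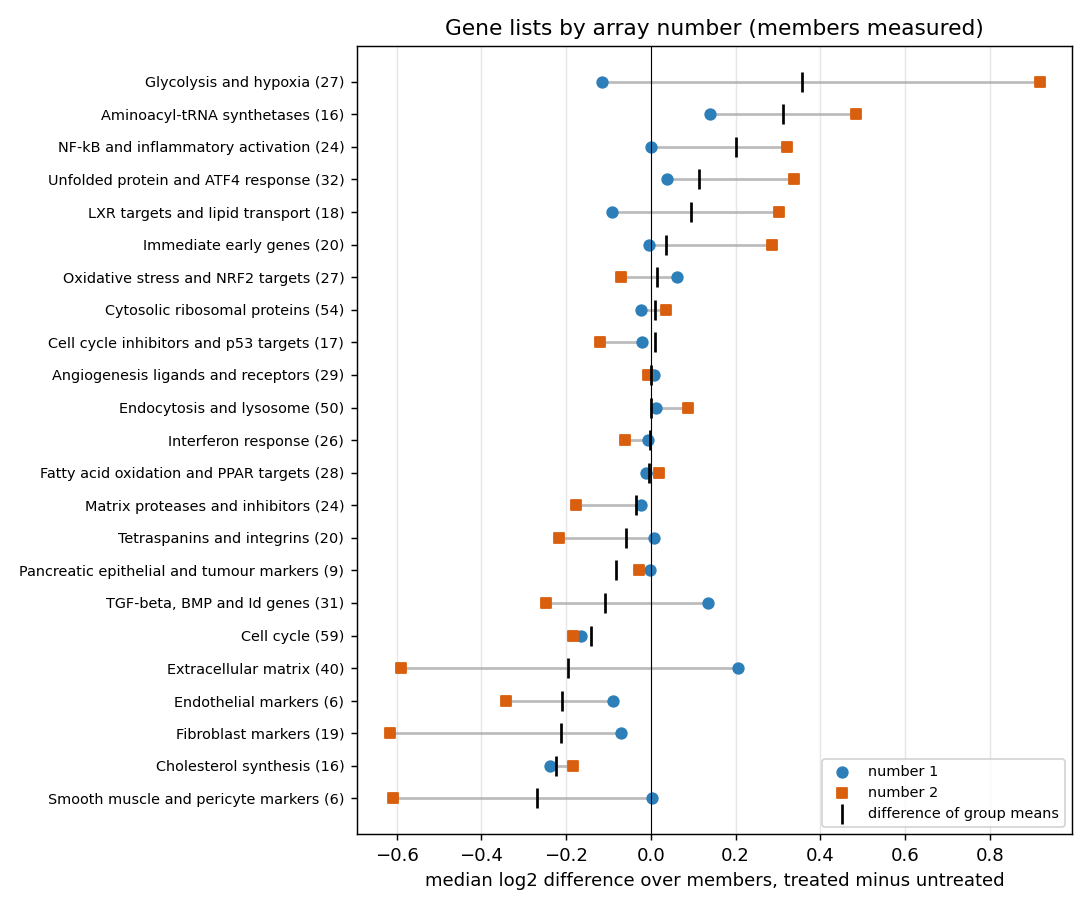
Median log2 difference over the measured members of each gene list (number of members in brackets) in number 1 (blue circles), in number 2 (orange squares) and between the group means (black bars). Aminoacyl-tRNA synthetases, cholesterol synthesis and the cell cycle lie on one side of 0 in both numbers, while glycolysis and extracellular matrix lie on opposite sides.

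Genes of glycolysis and of the response to low oxygen set treated array 2 apart from the other 3 arrays. Of 27 measured genes of glycolysis and hypoxia, 24 were higher in number 2 and 7 in number 1, the median log2 difference was 0.92 in number 2 and -0.12 in number 1, and treated array 2 was the highest of the 4 arrays for 22. Between the group means 23 were higher (median 0.36). Groups did not overlap for 3 higher (11.1%, against 13% of all features) and 1 lower (3.7%, against 12.1%). Without treated array 2 the median was -0.11. Of the members apart, Angptl4 is described above, P4ha1, which hydroxylates collagen, had a log2 difference of 0.30 (SE 0.19), the mitophagy receptor gene Bnip3l 0.14 (SE 0.18) and the vasodilator peptide gene Adm -0.37 (SE 0.21).

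The genes in the rest of the account of treated array 2 were chosen after their values were seen. Vegfa, the main growth factor of vessels and a hypoxia target, had a signal of 189 and 243 in untreated EC, 199 on treated array 1 and 522 on treated array 2. The lactate exporter gene Slc16a3 had 464 and 386, then 424 and 1046, and Pdk1, the kinase that keeps pyruvate out of mitochondria, had 387 and 376, then 334 and 926. The glycolytic enzyme gene Pgk1 had 3618 and 5424, then 3288 and 9398. In all 4 genes treated array 1 lay within or below the range of the untreated arrays and treated array 2 well above it. In windows of 250 bases before the start, 10 of 24 genes of the list with a RefSeq promoter held ACGTG, the core that hypoxia factors bind (41.7%, against 23.9% of measured genes and 16.9% of all promoters), and 3 held the longer CACGTG, whose matches are counted in the first as well (12.5%, against 8.74% and 5.79%).

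Mif, Ccr1 and Mmp3 also had their highest signal on treated array 2. Mif, a macrophage cytokine that also acts on vessels, had a signal of 3802 and 4341 in untreated EC, then 3853 and 9786. Ccr1, a chemokine receptor, had 91.0 and 155, then 103 and 383, and the stromelysin gene Mmp3 had 646 and 707, then 739 and 2182. The angiogenesis ligands and receptors had no common direction: 15 of 29 were higher, and the median was 0.00. Groups did not overlap for 1 higher (Angptl4) and 1 lower (3.4% each, against 13% and 12.1% of all features). The lower member was the VEGF coreceptor gene Nrp1, at normalized log2 values of 7.80 and 7.94 in untreated and 7.76 and 7.12 in treated EC. Of the matrix proteases and inhibitors, 12 of 24 were higher (median -0.04). Groups did not overlap for 2 higher (8.3%) and 4 lower (16.7%), against 13% and 12.1% of all features. Serpinf1, the vessel growth inhibitor, had 821 and 1097 against 748 and 475.

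Matrix and fibroblast genes were the counterpart on the lower side. Of 40 measured matrix genes, 30 were higher in number 1 and 7 in number 2, with medians of 0.21 and -0.59, and treated array 2 was the lowest of the 4 arrays for 24. Between the group means 30 were lower (median -0.19). Groups did not overlap for 1 higher (2.5%, against 13% of all features) and 5 lower (12.5%, near the 12.1% of all features). Without treated array 2 the median was 0.03. The fibroblast markers, 16 of 19 lower with 7 lower (36.8%, against 12.1% of all features) and 0 higher without overlap, had medians of -0.07 and -0.62. Ogn, a small matrix proteoglycan, had a signal of 3852 and 2723 in untreated EC, 4285 on treated array 1 and 343 on treated array 2. Cd248, a stromal surface protein, had 335 and 583, then 317 and 138, and collagen Col1a1 had 261 and 291, then 253 and 119. The lymphoid chemokine gene Ccl19 had 4679 and 1427, then 4559 and 263, with the untreated arrays themselves far apart.

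Not all stromal genes were low on treated array 2: Dcn had 24434 and 25618 on the treated arrays, level with untreated EC, and the proteoglycan gene Lum had 11482 and 9683, then 9833 and 15348. Thy1, a surface marker of fibroblasts, had 354 and 717 in untreated and 299.8 and 201 in treated EC and was lower in both numbers, with log2 differences of -0.31 and -1.85. Groups did not overlap, with smaller differences, for the collagen crosslinker gene Loxl1 (-0.42, SE 0.18), the calcium-binding gene S100a4 (-0.21, SE 0.16), the elastic fibre gene Fbln5 (-0.28, SE 0.19) and the osteopontin gene Spp1 (-0.59, SE 0.22). Loxl2 was the matrix gene apart on the higher side (0.37, SE 0.18). Of the 6 endothelial markers measured, 1 was higher, and the median was -0.21. Groups did not overlap for 0 higher and 2 lower (33.3%, against 12.1% of all features). The 6 smooth muscle markers measured had medians of 0.00 in number 1 and -0.61 in number 2. Of these, 0 were higher and 1 lower (16.7%) without overlap. Of 9 measured pancreatic and tumour markers 3 were higher (median -0.08), with 1 higher (11.1%) and 3 lower (33.3%) without overlap. Of 3 measured leukocyte markers 2 were higher (median 0.05), with 0 higher and 0 lower without overlap. The part that the makeup of the cultures has in these values was not tested.

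**Figure D4:**
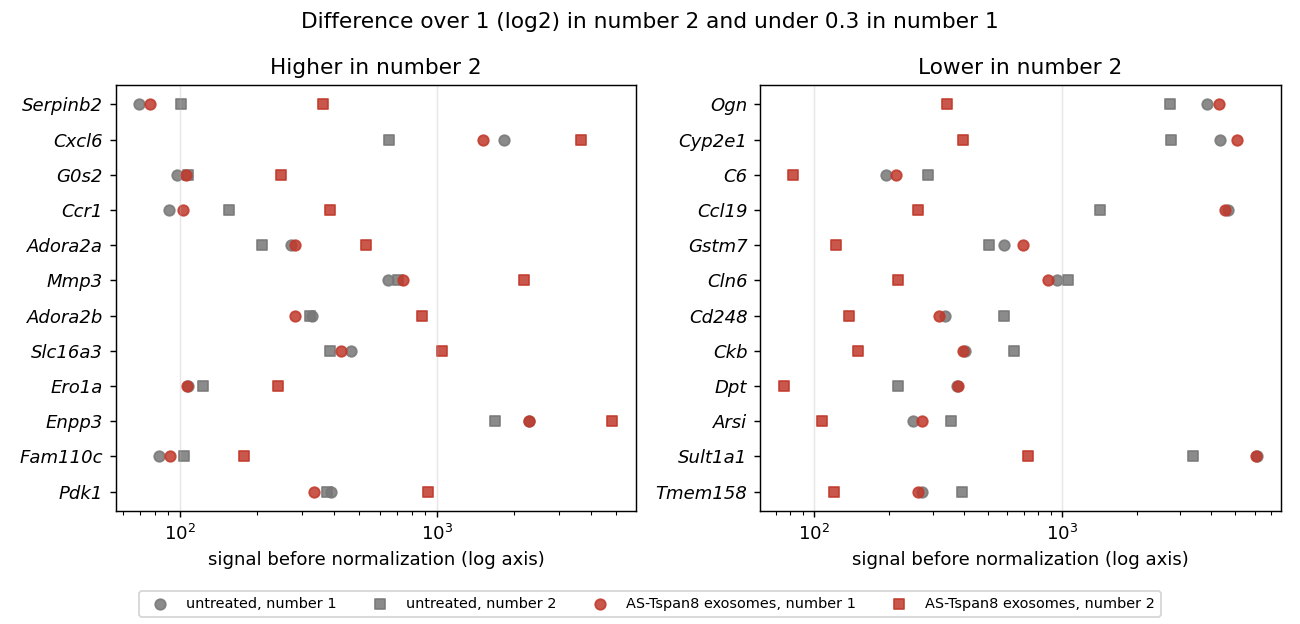
Signal before normalization (log axis) on each of the 4 arrays for the 12 genes with the largest higher and the 12 with the largest lower difference in number 2 among those that differed by less than 0.3 on the log2 scale in number 1. Treated array 2 (red squares) lies alone at one end, with the other 3 arrays together in genes such as Mmp3 and Cln6 and spread out in Cxcl6 and Ccl19.

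**Figure D5:**
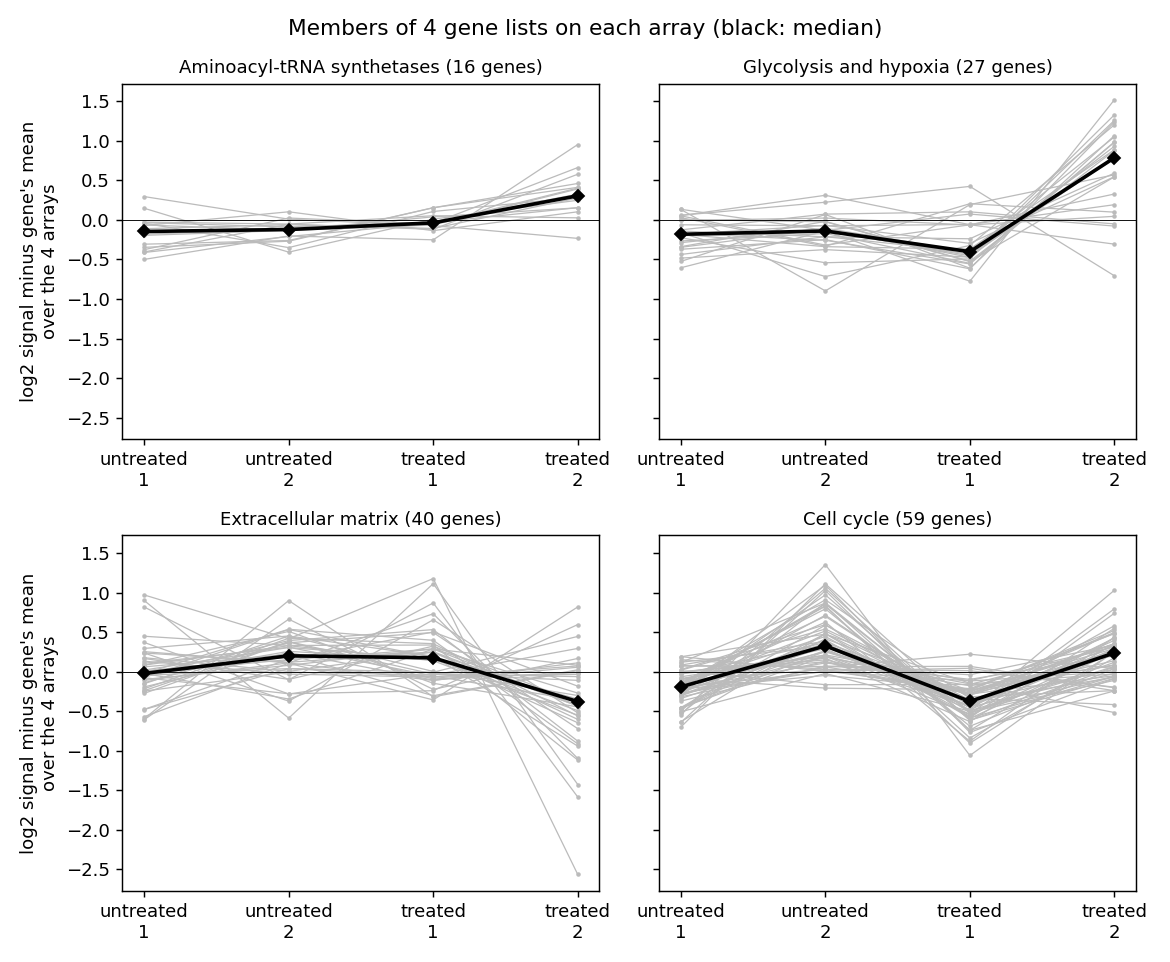
Log2 signal of every measured member (grey lines) of 4 gene lists on the 4 arrays, as the distance from the gene's own mean, with the median in black. Glycolysis genes are high and matrix genes low on treated array 2 alone, cell cycle genes are high on both arrays numbered 2, and the aminoacyl-tRNA synthetases are higher on the treated array within each number.

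A further 5 lists had medians between -0.11 and 0.03. TGF-beta, BMP and Id genes had a median of -0.11. Among 31, 4 were higher and 2 lower without overlap (12.9% and 6.5%, against 13% and 12.1% of all features). Id1, a target of BMP signals, had 152 and 172 in untreated and 181 and 191 in treated EC, and Ltbp1, which holds latent TGF-beta in the matrix, had 672 and 671 against 775 and 857. Both treated arrays were the higher ones in Id1 and Ltbp1. Among immediate early genes (12 of 20 higher, median 0.03), Myc had 1034 and 999.7 against 1038 and 1342, with the difference in number 2, and Klf2, a flow-responsive factor of endothelium, had 176 and 211 against 171 and 113. Interferon response genes had a median of 0.00. Among 26, 0 were higher and 3 lower without overlap (11.5%, near the 12.1% of all features). Oxidative stress genes had a median of 0.01. Among 27, 4 were higher and 1 lower without overlap (14.8% and 3.7%, against 13% and 12.1% of all features). The lower gene was the glutathione transferase gene Gstm2 at 9461 and 11202 against 8146 and 3791. Cytosolic ribosomal protein genes had a median of 0.01. Among 54 measured, 6 were higher and 6 lower without overlap (11.1% each, against 13% and 12.1% of all features).

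Genes of vesicle uptake and of the partners of tetraspanins were looked at because the agent was a vesicle. Of 50 measured genes of endocytosis and the lysosome, 25 were higher, with a median of 0.00. Groups did not overlap for 8 higher (16%, against 13% of all features) and 3 lower (6%, against 12.1%). Cltc, the clathrin heavy chain, had 3027 and 4230.5 in untreated and 4251 and 4593 in treated EC, and the lysosomal glucuronidase gene Gusb had 1667 and 1608 against 1767 and 1777. Treated arrays were above untreated arrays in both, by a small margin. Cavin1, which shapes caveolae, had 445 and 487 against 386 and 210.1, with log2 differences of -0.25 and -1.17. Of 20 measured tetraspanins and integrins, 7 were higher, with a median of -0.06. Groups did not overlap for 1 higher (5%) and 2 lower (10%), both under the shares of all features. The fibronectin receptor subunit gene Itga5 had a log2 difference of 0.42 (SE 0.22), and the tetraspanin Tspan31 one of -0.39 (SE 0.22).

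EC with exosomes of the parent line AS share the untreated arrays as controls, so the treatments are set side by side without an overlap of their calls. The direct contrast of the treatments called 0 of 9025 features with limma, and 51 features had an unadjusted p under 0.05. Relative to untreated EC, list medians with AS exosomes were 0.21 for the synthetases, 0.22 for glycolysis and hypoxia and 0.15 for NF-kB genes. They were -0.11 for the cell cycle, -0.12 for fibroblast markers, 0.00 for matrix genes and 0.21 for cholesterol synthesis. The last was on the other side from its median with AS-Tspan8 exosomes (-0.22). For Cpt1a the log2 difference from untreated was 0.82 with AS-Tspan8 exosomes and 0.54 with AS exosomes, with signals of 584 and 616 in the latter. Apoe had -0.95 and -0.42, and Ube2c had -0.98 and -0.90. Tnnt2 was at 187 and 187 with AS exosomes, within the range of its untreated signals. Ror1 was at 111 and 103 with AS exosomes, and was detected on both arrays. None of these contrasts passed, each with an adjusted p of 1 (limma). On array 2 of EC with AS exosomes, 4 genes that set treated array 2 apart, chosen after their values were seen, lay between it and untreated array 2: Ogn was at 1497, Ccl19 at 1361, Cln6, a gene of a lysosomal storage disease, at 497 and Slc16a3 at 793. The exceptions were Ccr1 at 141 and Serpinb2, an inhibitor of plasminogen activators, at 95.4, against 101 on untreated and 359 on treated array 2.

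Detection on the AS-Tspan8 exosome arrays, whose summed signal was 2390580 and 2413940, is given for the messages that differed. Such detection cannot show whether a message passed into EC, and carriage by the exosomes was not tested. Of the 847 named features that were higher in both numbers without overlap, 104 were detected on both AS-Tspan8 exosome arrays (12.3%), and of the 839 lower ones 114 were (13.6%), beside 854 of all 6772 named features (12.6%). Pappa, at 107.3 and 107.9, was detected on both exosome arrays, and Cpt1a, at 74.3 and 75.1, on neither.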

How the data were processed

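Labelled RNA was hybridised to 1-colour Illumina rat arrays, per the labels. The deposited table holds an intensity before normalization and a detection p-value for each probe and array, per the file headers, and a further deposited table holds processed intensity values used as an alternative. The software version and the method behind the processed table are not given in the sources used here. Intensities of the 6 EC arrays were background corrected with normexp from the detection p-values, given an offset of 16, quantile normalized and log2 transformed (limma 3.58.1, R 4.3.3). Quantile normalization gives all arrays one distribution, so differences are relative to it.

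Probes with detection p under 0.01 on at least 2 arrays were kept, with the brightest probe for each gene, which left 9025 features, 6772 of them named. Names came from the platform annotation (13793 probes with 1 symbol, 8730 unnamed here), and 13752 matched RefSeq's gene table. The 3 EC groups were fitted as group means with lmFit and eBayes, and features were called at a Benjamini-Hochberg adjusted p under 0.05. The scripts were tested on simulated data. There, 0 of 50 changes of 0.5 on the log2 scale were recovered, 16 of 50 changes of 1 and 35 of 50 changes of 2. Of changes of 3, 43 of 50 were recovered, and 2 calls were false. Small changes can thus be missed by the test. No fold is given where a group had no detection.

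The gene lists, the comparison and the genes named were chosen with earlier results of these data known. Genes were ranked by the smaller of their pair differences among those with groups that did not overlap, the same direction in both numbers and detection on both arrays of the higher group. The first 12 in each direction were named, and up to 4 per direction in each list, or 2 with the largest test statistic where a list had none. Alternatives covered background, scaling, offset, filter, probe choice, the deposited processed table, the arrays fitted, the replicate number and each array left out. Depth does not apply to arrays, and their number limits the precision.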

Additional observations from a re-analysis of the deposited data

How the results depend on the processing

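The count of features past an adjusted p of 0.05 was 0 under all 14 alternatives and in the limma fit as reported. Features under an unadjusted p of 0.05 numbered 116 as reported, 85 with the 4 arrays alone, 617 without a filter on detection and 924 without treated array 1. With the number as a replicate block the count stayed at 0, with a lowest adjusted p of 0.806 and 482 features under an unadjusted p of 0.05. The labels do not say what arrays of one number share. Deviations from the group means correlated at 0.37 between same-numbered untreated and treated arrays. They correlated at 0.50 and 0.55 where EC with AS exosomes were one side. What lies behind these correlations was not tested. When arrays were left unscaled, the median over all features moved to -0.13, with 26.7% higher, the unfolded protein and ATF4 list had a median of -0.030 and the fatty acid oxidation list one of -0.12. With 1 array left out, medians ran from 0.065 to 0.26 for the unfolded protein and ATF4 list and from -0.54 to -0.061 for the fibroblast markers, relative to all features. A lone array was then assumed to vary like the other groups. The cause of these shifts was not tested.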
